A study of Homo sapiens with 18 samples.

Results

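CTCF and the cohesin genes were followed in K562 cells that express the transcriptional corepressor BASP1 or a lipidation mutant of it. The 10 genes were taken by symbol: CTCF and its germ line paralog CTCFL, the cohesin ring genes SMC1A, SMC3 and RAD21, the 2 STAG subunits STAG1 and STAG2, the loader NIPBL, and the ring-associated PDS5A and PDS5B. All 10 were among the 28395 genes of both RNA-seq tables. Of the 85549 regions in which an ATAC-seq peak was called in any library, 36 lay inside one of these genes or within 5 kb of it. K562 is an established human leukemia cell line with erythroid features that lacks BASP1. The 3 lines were V-K562 (control), B-K562 (wtBASP1) and G-K562 (BASP1-G2A, in which the N-terminal glycine that receives the myristoyl group is replaced). Stably transfected derivatives of K562 had been selected as pools and kept in G-418. What the control line carries is not given in the sources used here. Each line gave 3 RNA-seq libraries and 3 ATAC-seq libraries.

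CTCF is a zinc-finger protein that binds a long DNA motif, and cohesin is the ring-shaped complex that holds sister chromatids together and extrudes chromatin loops until it meets CTCF. The SMC1A and SMC3 proteins form the long arms of the ring, RAD21 closes it, and either STAG1 or STAG2 sits on RAD21 and contacts CTCF. NIPBL loads the ring and drives extrusion, whereas the PDS5 proteins bound to it help both to release it and to keep it in place.

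The RNA-seq values are normalised read counts, meaning reads per gene divided by a size factor for the library, and each table holds V-K562 beside one other line. An estimated 28917684 to 37045203 read pairs per library had been assigned to genes. BASP1 itself stood at 5 to 7 in the V-K562 libraries, between 6189 and 6849 in the B-K562 libraries, and between 8124 and 12538 in the G-K562 libraries, as labelled. The 7 K562 markers, which include the globin genes HBG1 and HBG2, were present in every line, but their summed value lay between 65128 and 72883 in V-K562, between 102182 and 107606 in B-K562 and between 18169 and 19437 in G-K562. Every one of the 7 was called higher in B-K562 than in V-K562 (median log2 difference 0.68), and in G-K562 every one was called lower than in V-K562 (median -1.46). The summed value of 6 markers of other blood cells lay between 1467 and 1567 in V-K562, between 1390 and 1510 in B-K562 and between 3948 and 4442 in G-K562, mostly from LYZ, while the B cell marker MS4A1 was at 0 in all 9 libraries and MPO had means of 26.7 ± 43.6 (SD, n = 3) in V-K562, 2.67 ± 1.53 in B-K562 and 10.3 ± 7.77 in G-K562. These shifts in cell state accompanied all the differences given below, and their part in them was not tested.

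The control regions of CTCF, CTCFL and STAG1 are shown because CTCF and STAG1 had the largest RNA-seq differences from V-K562 in both BASP1 lines, and CTCFL is the paralog of CTCF. Each line holds the 250 bases before a start site from RefSeq (GRCh38.p14), in the direction of transcription. Capitals mark matches, on either strand, to a WT1 and EGR-like motif (GNGTGGGNG, N being any base) and to the CTCF core motif. WT1 is the DNA-binding protein through which BASP1 is known to reach many of its target genes.
CTCF, chr16:67562276-67562525, plus strand: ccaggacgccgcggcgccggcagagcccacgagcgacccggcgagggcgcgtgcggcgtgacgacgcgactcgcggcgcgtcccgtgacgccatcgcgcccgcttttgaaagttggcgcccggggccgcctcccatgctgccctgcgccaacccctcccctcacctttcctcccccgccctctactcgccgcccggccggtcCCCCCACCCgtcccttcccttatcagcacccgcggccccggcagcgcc
CTCFL, first of 3 starts, chr20:57524698-57524947, minus strand: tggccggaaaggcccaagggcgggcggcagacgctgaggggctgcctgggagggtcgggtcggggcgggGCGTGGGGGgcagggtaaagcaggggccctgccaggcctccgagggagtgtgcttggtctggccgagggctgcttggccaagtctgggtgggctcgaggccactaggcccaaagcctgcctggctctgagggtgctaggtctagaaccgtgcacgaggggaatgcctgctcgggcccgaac
STAG1, chr3:136752379-136752628, minus strand: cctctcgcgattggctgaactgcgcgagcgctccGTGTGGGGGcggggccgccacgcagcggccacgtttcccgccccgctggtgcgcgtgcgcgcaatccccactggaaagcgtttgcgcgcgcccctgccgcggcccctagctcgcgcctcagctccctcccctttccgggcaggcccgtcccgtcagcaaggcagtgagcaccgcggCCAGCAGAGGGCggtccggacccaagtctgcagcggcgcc
The capitals in the CTCF and CTCFL lines, which begin at positions -48 and -181 from the start, are WT1 and EGR-like matches. In the STAG1 line the capitals at -216 are a WT1 and EGR-like match and those at -40 are a CTCF core match, and another CTCF core match begins 18 bases after the start. The set of RefSeq promoters used here held 14 starts for 9 of the 10 genes and had no entry for RAD21. Over windows from 250 bases before to 50 after a start, the CTCF core motif was matched in 2 of these 14 (STAG1 and the third CTCFL start) and in 2.41% of 35116 promoters. The WT1 and EGR-like motif was matched in 6 of the 14 and in 16.2% of all promoters, and the 14 include neighbouring starts of the same gene. Neither motif was matched at the starts of SMC1A. A match is a run of letters and was not tested as a binding site.

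Relative to V-K562 cells, B-K562 cells had different RNA levels of 8 of the 10 genes. RNA from CTCF, STAG1, PDS5B, NIPBL, SMC1A and PDS5A was higher and RNA from RAD21 and CTCFL was lower, whereas SMC3 and STAG2 were not called. CTCF and STAG1 both came close to a doubling (2.0-fold and 1.96-fold). The 6 genes called higher, of 10, stand beside 38.6% of the 14958 genes tested, and the 2 called lower beside 37.2%. The median difference of the 10 genes was 0.33 on the log2 scale, against 0.01 for all genes tested. Relative to V-K562 cells, in G-K562 cells CTCF, STAG1, PDS5A and RAD21 were higher and CTCFL, SMC1A and SMC3 were lower. These 4 and 3 of the 10 genes stand beside 33.5% and 33.3% of 15271 genes, shares that the members did not depart from by much, and the median was -0.06 against 0.00. Directly compared, G-K562 cells had less RNA than B-K562 cells from CTCF, CTCFL, SMC1A, SMC3, NIPBL and PDS5B and more from RAD21. The background there was 40.5% lower and 38.1% higher among 15521 genes, and the median of the 10 genes was -0.28 against -0.02. A call means an adjusted p of at most 0.05 in limma, with Benjamini-Hochberg adjustment over all genes tested, and the p-values measure only the spread between the 3 libraries of a line.

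**Figure D1:**
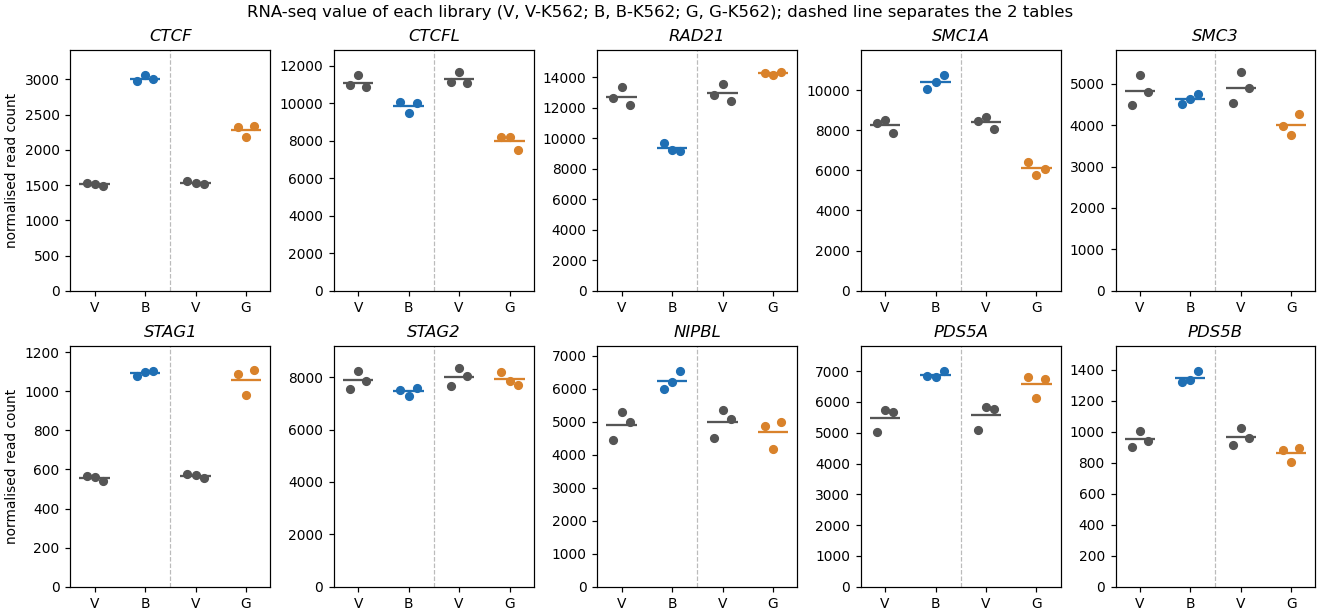
RNA-seq normalised read count (vertical axes, from 0) of the 10 genes in each library. Points are libraries, bars are means of 3, and the V-K562 libraries appear in both tables on slightly different scales. The 3 B-K562 libraries sit above the 3 V-K562 libraries for CTCF, SMC1A, STAG1, NIPBL, PDS5A and PDS5B, and below them for RAD21 and CTCFL.

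CTCF was the member with the largest difference in B-K562 cells. The 3 V-K562 libraries held 1531, 1510 and 1486 normalised reads and the B-K562 libraries 2975, 3055 and 3005. In the second table V-K562 held 1554, 1533 and 1516 and G-K562 2321, 2178 and 2333. The 3 lines did not overlap, with B-K562 the highest and G-K562 between the others. In log2 terms CTCF differed by 1.0 (SE 0.05, adjusted p = 3.87e-10) for B-K562 and 0.57 (SE 0.06, adjusted p = 4.71e-06) for G-K562 against V-K562. It was larger in size than that of 79.2% of all genes tested in B-K562 and of 62.7% in G-K562. The authors' paper, by contrast, describes the level of several transcription factors, CTCF among them, as unchanged in both BASP1 lines. It gives no threshold for that statement. G-K562 stood 0.43 below B-K562 (log2 difference -0.43, 95% interval -0.53 to -0.33, adjusted p = 1.0e-06), so the rise in G-K562 was the smaller. Within 5 Mb of CTCF, 107 other tested genes had a median log2 difference of 0.24 in B-K562, and CTCF was above 89.7% of them. The genes whose levels over the 9 libraries on one scale were most like those of CTCF, among 11384 genes with a mean of at least 100, were CPSF7, SLC52A2, ZNF689, THAP11 and SLC25A44 (Pearson's r 0.998 each). These correlations describe 9 libraries that fall into 3 lines and follow the order of the line means.

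CTCFL, also called BORIS, is normally a testis gene that many tumour lines switch on, and its zinc fingers read nearly the same motif as those of CTCF. It held 10969, 11509 and 10861 reads in V-K562 and 10085, 9463 and 10028 in B-K562. In the other table its values were 11137, 11685 and 11082 in V-K562 and 8213, 8199 and 7511 in G-K562. Both BASP1 lines lay below every V-K562 library, G-K562 by more. The fitted log2 difference of CTCFL was -0.17 in B-K562 (SE 0.05, adjusted p = 0.0041), -0.50 in G-K562 (SE 0.06, adjusted p = 1.2e-05) and -0.33 between G-K562 and B-K562 (SE 0.05, adjusted p = 2.69e-05). The fall in B-K562 was among the smaller ones, since only 19.4% of tested genes moved less.

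RAD21, the subunit that is cut at anaphase to open the ring, moved in opposite directions in the 2 BASP1 lines. V-K562 held 12648, 13336 and 12165 reads and B-K562 9694, 9255 and 9171. The G-K562 libraries held 14266, 14113 and 14351 beside 12842, 13540 and 12412 in V-K562. B-K562 was lowest and G-K562 highest, with no overlap. RAD21 fell by 0.44 on the log2 scale in B-K562 (SE 0.05, adjusted p = 1.88e-06) and was 0.14 higher in G-K562 (SE 0.05, adjusted p = 0.039). The small rise in G-K562 was no longer called without V-K562 replicate 1 (adjusted p = 0.072) or 3 (0.12), or without G-K562 replicate 1 (0.0999) or 3 (0.11), or with no filter on low values (0.051), while the difference between G-K562 and B-K562 (0.58, SE 0.05, adjusted p = 3.16e-08) was called in all alternatives. The exons of RAD21 share 256 bp with its antisense RNA RAD21-AS1, and whether counting used strand is not given in the sources used here. RAD21-AS1 had a mean of only 4.33 in V-K562, 7.67 in B-K562 and 9.67 in G-K562. CBLB, PAX8, LONRF1, TCTEX1D2 and KRT8 had the patterns most like that of RAD21 over the 9 libraries, with r from 0.992 to 0.995.

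SMC1A and SMC3 pair one to one in the ring, and their RNAs parted in B-K562 but were both lower in G-K562. SMC1A stood at 8342, 8521 and 7881 in V-K562 and 10042, 10398 and 10724 in B-K562. Beside 8470, 8652 and 8041 in V-K562, the G-K562 libraries held 6409, 5786 and 6087. B-K562 was above and G-K562 below every V-K562 library. The log2 difference was 0.33 in B-K562 (SE 0.05, adjusted p = 2.34e-05) and -0.46 in G-K562 (SE 0.06, adjusted p = 2.84e-05). Between G-K562 and B-K562 it reached -0.79 (95% interval -0.90 to -0.69, adjusted p = 2.8e-09), the largest difference of any member in that comparison. RNA from 81 tested neighbours within 5 Mb had a median difference of -0.22 there, and SMC1A was above 33.3% of them.

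SMC3 held 4478, 5210 and 4790 reads in V-K562 and 4511, 4637 and 4763 in B-K562, ranges that overlap. Its difference in B-K562 was -0.06 (95% interval -0.18 to 0.06, adjusted p = 0.38). In G-K562 it held 3971, 3774 and 4270 reads against 4547, 5289 and 4887 in V-K562, and was called lower (log2 difference -0.29, SE 0.07, adjusted p = 0.0029). G-K562 was also below B-K562 (-0.24, SE 0.06, adjusted p = 0.0025), a call lost under quantile normalization (adjusted p = 0.064), which in turn called SMC3 lower in B-K562 (-0.20, adjusted p = 0.0037). In B-K562 SMC1A was called higher and SMC3 was not, and the difference between the genes was not tested.

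The interchangeable subunits STAG1 and STAG2 did not move together. STAG1 stood at 568, 564 and 543 in V-K562 and 1078, 1101 and 1102 in B-K562. In the second table it stood at 577, 573 and 554 in V-K562 and 1091, 979 and 1107 in G-K562. Both BASP1 lines were above V-K562 without overlap, and they overlapped one another. The log2 difference was 0.97 in B-K562 (SE 0.06, adjusted p = 3.72e-09) and 0.90 in G-K562 (SE 0.07, adjusted p = 8.36e-07). Between G-K562 and B-K562 it was -0.07 (95% interval -0.20 to 0.06, adjusted p = 0.29). Of 40 tested genes within 5 Mb, 97.5% had a lower value than STAG1 in B-K562, and their median was -0.15.

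STAG2 held 7547, 8235 and 7870 reads in V-K562 beside 7504, 7294 and 7588 in B-K562, and 7663, 8361 and 8029 beside 8211, 7837 and 7719 in G-K562. The lines overlapped in both tables. The difference was -0.08 in B-K562 (95% interval -0.18 to 0.02) and -0.02 in G-K562 (95% interval -0.14 to 0.11), with adjusted p of 0.14 and 0.81. In B-K562 it was called lower without V-K562 replicate 1 (-0.11, adjusted p = 0.026) and under quantile normalization (-0.20, adjusted p = 0.00091). Between G-K562 and B-K562 it was 0.06 (95% interval -0.04 to 0.16), called under quantile normalization only (0.14, adjusted p = 0.0075). The ratio of STAG2 to STAG1, each per kb of exon, was 13.5 ± 0.697 (SD, n = 3) in V-K562, 6.51 ± 0.168 in B-K562 and 7.16 ± 0.493 in G-K562. No library of either BASP1 line reached the V-K562 range. The exact permutation test gave p = 0.1, two-sided, for each pair of lines, which is the smallest value that 3 against 3 allows, and 0.11 after Benjamini-Hochberg adjustment over 9 ratio tests.

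NIPBL followed the direction of SMC1A in B-K562. It stood at 4438, 5290 and 4998 in V-K562 and 6003, 6202 and 6529 in B-K562, with no overlap. In G-K562 it held 4864, 4169 and 4996 beside 4506, 5371 and 5100 in V-K562, which overlap. The log2 difference was 0.35 in B-K562 (SE 0.06, adjusted p = 0.00015), -0.09 in G-K562 (95% interval -0.28 to 0.09, adjusted p = 0.33) and -0.45 between the 2 (SE 0.07, adjusted p = 7.14e-05). The divergent transcript NIPBL-AS1, which starts at the same accessible region, was counted separately and was 0.52 higher in B-K562 (adjusted p = 4.58e-07) and 0.30 higher in G-K562 (adjusted p = 0.00095).

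The PDS5 paralogs rose together in B-K562 and parted in G-K562. PDS5A had 5023, 5734 and 5665 reads in V-K562, 6826, 6799 and 6991 in B-K562 and 6813, 6141 and 6753 in G-K562, whose own V-K562 columns held 5100, 5822 and 5780. Both BASP1 lines were above all V-K562 libraries. The log2 difference was 0.33 in B-K562 (SE 0.05, adjusted p = 7.45e-05), 0.24 in G-K562 (SE 0.07, adjusted p = 0.0083) and -0.09 between them (95% interval -0.22 to 0.03). PDS5B had 903, 1007 and 941 reads in V-K562 and 1319, 1332 and 1390 in B-K562. It had 885, 808 and 894 in G-K562 beside 917, 1023 and 960. Its difference was 0.50 in B-K562 (SE 0.06, adjusted p = 2.89e-06), -0.16 in G-K562 (SE 0.07, adjusted p = 0.065) and -0.67 between G-K562 and B-K562 (SE 0.06, adjusted p = 1.71e-07). The G-K562 libraries lay just below every V-K562 library, and the call was made without V-K562 replicate 1 (adjusted p = 0.046), under quantile normalization (0.023) and in a fit of all 9 libraries (0.029). The ratio of PDS5A to PDS5B per kb was 5.59 ± 0.23 (SD, n = 3) in V-K562, 4.96 ± 0.0707 in B-K562 and 7.40 ± 0.0717 in G-K562, without overlap between any of the lines (exact permutation p = 0.1 for each pair, the smallest possible).

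**Figure D2:**
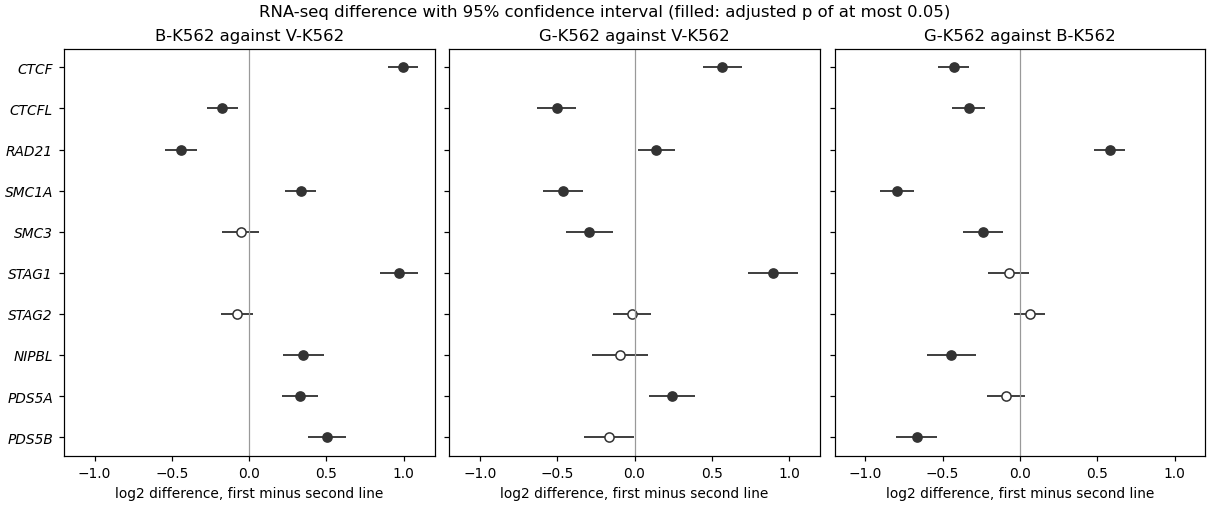
RNA-seq log2 difference of the 10 genes (horizontal axes) in each comparison, with 95% confidence intervals. Filled points are called and open points are not. STAG1 and STAG2 keep nearly the same difference in both comparisons with V-K562, while SMC1A and RAD21 are called on opposite sides of 0.

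Per kb of exon, RAD21 was the most abundant member in every line and the spread between members exceeded 10-fold in each. In V-K562 it had 3448 ± 152 normalised reads per kb (SD, n = 3), followed by CTCFL at 1422 ± 41.9, SMC3 at 1194 ± 90.3 and STAG2 at 1186 ± 51.6. SMC1A (845 ± 31.6), PDS5A (711 ± 51.7), NIPBL (476 ± 42.2), CTCF (389 ± 4.83), PDS5B (127 ± 7.01) and STAG1 (88.0 ± 1.90) came after them. In V-K562 the only neighbours in this order whose library ranges overlapped were SMC3 and STAG2. The order was different in the BASP1 lines. CTCF passed NIPBL in both, at 777 ± 10.4 against 606 ± 25.8 in B-K562 and 578 ± 21.9 against 446 ± 42.4 in G-K562. In G-K562 STAG2 (1172 ± 38.0) also passed CTCFL (1003 ± 50.5), and PDS5A (839 ± 47.5) passed SMC1A (614 ± 31.4). STAG1 and PDS5B were the lowest 2 in all lines, with STAG1 last in V-K562 and B-K562 and PDS5B last in G-K562. CTCFL exceeded CTCF in level per kb in all 9 libraries. The ratio of CTCF to CTCFL was 0.274 ± 0.00858 (SD, n = 3) in V-K562, 0.617 ± 0.0301 in B-K562 and 0.578 ± 0.0458 in G-K562. Each BASP1 line was above V-K562 without overlap (exact permutation p = 0.1, the smallest possible), and the BASP1 lines overlapped one another (exact permutation p = 0.3).

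**Figure D3:**
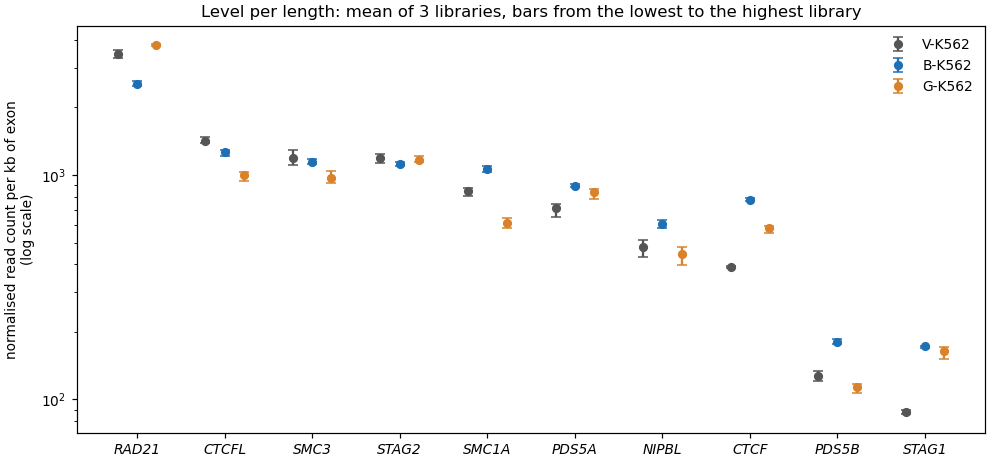
Level of each member per kb of merged exon (vertical axis, log scale) in the 3 lines. Points are means of 3 libraries and bars run from the lowest to the highest library. The genes are ordered by V-K562 level, from RAD21 at 3448 to STAG1 at 88.0.

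Genes that work with cohesin and CTCF were read from lists. Of 15 tested cohesin regulators and meiotic subunits, 8 were higher and 4 lower in B-K562 than in V-K562, 3 were higher and 6 lower in G-K562, and 6 were higher and 8 lower in G-K562 than in B-K562. Beside them stand the shares of all genes given above, 38.6% higher and 37.2% lower in B-K562, 33.5% and 33.3% in G-K562, and 38.1% and 40.5% between them, and the same shares apply to the lists that follow. The medians of the 15 genes were 0.17, -0.18 and -0.25. The acetyltransferase gene ESCO2, which acts in S phase to lock cohesin on DNA, rose most in both BASP1 lines (log2 difference 0.44 and 0.79). The meiotic kleisin gene REC8 fell most in B-K562 (-1.45) and rose most between G-K562 and B-K562 (1.21), while the meiotic subunit gene STAG3 fell most in G-K562 (-0.90). ESPL1, which encodes the separase that cuts RAD21, had the largest fall between G-K562 and B-K562 (-0.59). In V-K562 the mean normalised read count was 191 for REC8 and 230 for STAG3, and SMC1B was at 0 in every library.

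Among 14 genes of condensin and SMC5/6, the other SMC complexes, 7 were higher and 2 lower in B-K562, 3 and 5 in G-K562, and 1 and 10 in G-K562 compared to B-K562. NCAPD3 rose most in B-K562 (0.90) and NCAPG2 fell most (-0.36). In G-K562, NSMCE3 rose most (0.48 against V-K562, 0.53 against B-K562) and NCAPG fell most (-0.95 and -1.0). For 10 proteins known to act with CTCF the counts were 9 and 0, 5 and 3, and 1 and 7, with PARP1 the highest in B-K562 (0.87). UBTF rose most (0.66) and YBX1 fell most (-0.99) in G-K562 against V-K562. Against B-K562, DDX5 was the single gene called higher in G-K562 (0.14) and YBX1 again fell most (-1.52).

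The 12 proliferation genes gave 9 higher and 3 lower in B-K562, 0 and 7 in G-K562, and 2 and 9 between G-K562 and B-K562, with medians of 0.39, -0.20 and -0.55. PCNA rose most in B-K562 (0.82) and AURKB fell most (-0.55), whereas BUB1 fell most in G-K562 (-0.95 against V-K562, -1.11 against B-K562) and TOP2A was the larger of the 2 rises there (0.30). Most of these genes thus had the directions of CTCF, NIPBL, SMC1A and PDS5B, which were higher in B-K562 than in V-K562 and lower in G-K562 than in B-K562. Their part in those differences was not tested.

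Chromatin accessibility around the 10 genes was measured by ATAC-seq, in which a transposase cuts open DNA. The value of a region in a library is its summit pileup, the number of overlapping fragments at the highest point of a called peak. V-K562 libraries had 53862 to 55570 called peaks, B-K562 libraries 47111 to 48905 and G-K562 libraries 48408 to 51199. The mean pileup over called peaks was 40.3 to 40.9, 47.4 to 47.8 and 50.7 to 52.3 in the same order. V-K562 thus had more peaks at a lower mean pileup, and the part of this line-wide difference in those given below was not tested. Of the 36 regions around the members, 16 had a peak in all 9 libraries and 5 in a single library, and 18 lay in introns, 11 upstream of or across a start, 5 in exons and 2 downstream. A region was fitted where at least 3 of the compared libraries had a peak in it, which left 26 for B-K562 and 27 for G-K562 against V-K562 and 28 for G-K562 against B-K562.

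In B-K562, 9 of the 26 regions were called more accessible and 2 less, beside 8.57% and 16.6% of the 52204 regions tested. In G-K562, 10 of 27 were higher and 4 lower, beside 15.9% and 26% of 54213. Between G-K562 and B-K562, 2 of 28 were higher and 5 lower, beside 12.3% and 15.6% of 60181. The medians over the fitted member regions were 0.31, 0.29 and 0.01 on the log2 scale, against -0.06, -0.10 and 0.00 over all regions. With the equal tag number as the only scaling the median of all regions moved up by 0.12, 0.28 and 0.12, and the member counts became 10 higher and 0 lower in B-K562, 12 and 4 in G-K562, and 5 and 4 between G-K562 and B-K562. Under that scaling 15.8% of all regions were higher and 12.7% lower in B-K562, 31.1% and 18.2% in G-K562, and 22.7% and 13.3% between them, so the balance of gains and losses rests on the scaling. A region without peaks in one line entered these fits through the other lines, with filled values in place of its own, so the counts are descriptions. In G-K562 against B-K562, regions with peaks only in V-K562 were filled in both lines and had a difference of 0 by construction. Such regions are among the 60181 and enter their median and shares. The B-K562 calls depended on single libraries: without B-K562 replicate 2 they numbered 2 higher and 0 lower, without replicate 3 they numbered 3 higher, and without B-K562 replicate 1 or V-K562 replicate 1 they numbered 4 and 5. Leaving out any 1 library left 0 or 1 region lower. In G-K562 against V-K562 the count stayed between 7 and 9 higher and between 3 and 5 lower. For G-K562 against B-K562, the 5 lower became 3 without B-K562 replicate 3 or G-K562 replicate 1 or 2 and 2 without G-K562 replicate 3, and the 2 higher became 1 without replicate 3 of either line.

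The start-site regions, taken as 1 per gene, account for 5 of the 9 regions that were higher in B-K562 and 7 of the 10 in G-K562. A further CTCFL region, across the annotated start of that gene, was also called higher in both lines and is not in these counts. Start sites in general had higher scaled pileups in the BASP1 lines. Across the start-site regions of all tested genes, 9626 in number, the median difference in B-K562 was 0.23, with 19.7% higher and 2.31% lower. For the start sites of the 10 members the median was 0.33, with 5 called higher, 0 lower and all 10 above 0. In G-K562 the median over 9865 start-site regions was 0.32, with 40.5% higher and 4.35% lower. That of the members was 0.41, with 7 of 10 higher and 0 lower. The member medians thus lay slightly above those of start sites as a class, which is the nearer comparison. Larger shares of the 10 were called higher, and the difference from the class was not tested. The CTCFL region, in these counts and medians, had a peak in 1 V-K562 library and was fitted through the BASP1 lines, so they are descriptions. The PDS5A call held in 2 of 12 alternatives in B-K562 and in 6 in G-K562, and the STAG2 call in 7 and 9. Between G-K562 and B-K562 the member median was 0.04 against 0.07 for 10081 start-site regions. Of the 10 members 1 was higher and 2 were lower, beside 13.2% and 7.58% of those regions.

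**Figure D4:**
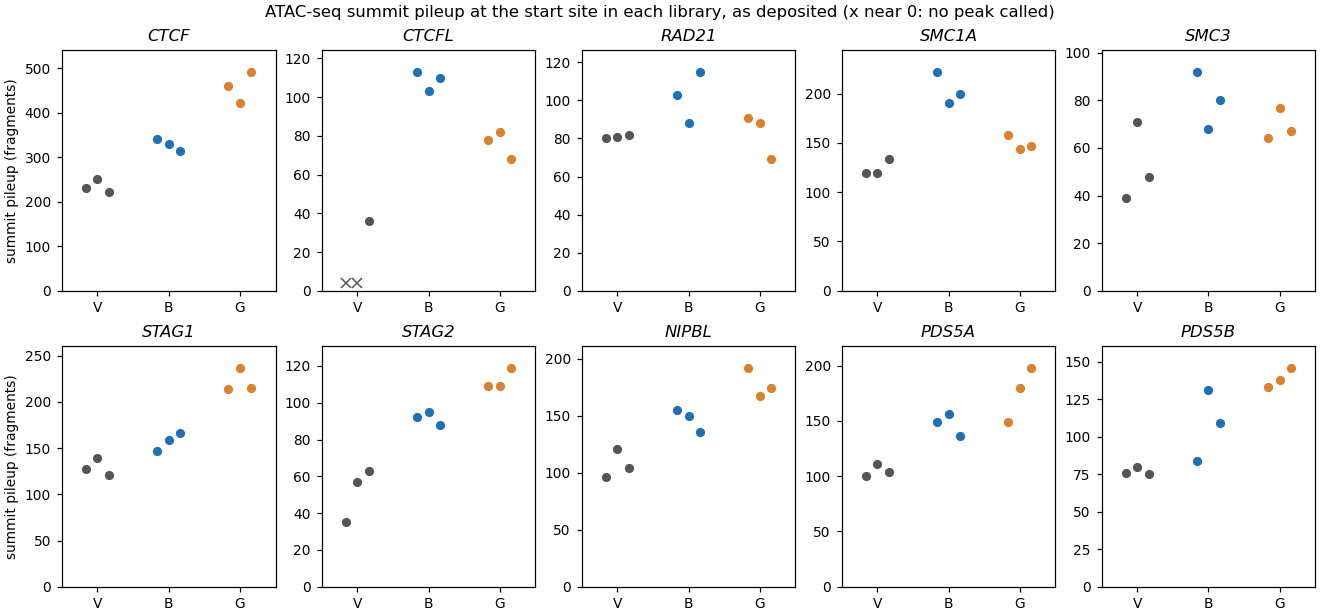
ATAC-seq summit pileup (vertical axes, fragments, from 0) at the start-site region of each gene in the 9 libraries, as deposited and before the scaling used in the tests. A cross near 0 is a library with no called peak. At the CTCF start the lines are stepped, with V-K562 between 223 and 252, B-K562 between 315 and 340 and G-K562 between 423 and 492.

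The region over the CTCF start (chr16:67561814-67562895) was the most accessible of the 36. Its pileup was 231, 252 and 223 in V-K562, 340, 330 and 315 in B-K562 and 460, 423 and 492 in G-K562. The lines did not overlap, and unlike the RNA the highest was G-K562. After scaling, the log2 difference was 0.33 in B-K562 (SE 0.07, adjusted p = 0.016), 0.61 in G-K562 (SE 0.07, adjusted p = 0.00074) and 0.26 between G-K562 and B-K562 (SE 0.07, adjusted p = 0.016). The first of these fell just short of the threshold without B-K562 replicate 1 (adjusted p = 0.052) or 2 (0.055), and the last without B-K562 replicate 3 (0.052) or G-K562 replicate 3 (0.051) or with pileup summed over the peaks (0.19).

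CTCFL had higher pileups at its start in both BASP1 lines, in which its RNA was lower. The region over its first listed start (chr20:57524624-57525188) had a called peak in 1 of 3 V-K562 libraries, with a pileup of 36. It had 113, 103 and 110 in B-K562 and 78, 82 and 68 in G-K562. The region was fitted through the BASP1 lines, where it is high, and the 2 V-K562 libraries that lacked a peak were set to 17. The log2 difference was then 2.16 in B-K562 and 1.52 in G-K562, the largest of the called rises among the member regions. These are descriptions without a test, since their size depends on the filled value (2.63 and 1.99 when it was 10). The first region was taken as the CTCFL start-site region by mean pileup, a mean that left out the libraries without a peak. A second region (chr20:57525390-57526843), with its summit upstream, covered the annotated start of the gene and had a peak in all 9 libraries. It held 37, 55 and 51 in V-K562, 88, 90 and 92 in B-K562 and 108, 80 and 94 in G-K562. This second region was also higher in both lines (0.77, adjusted p = 0.013 and 0.63, adjusted p = 0.027). Its B-K562 call was lost without B-K562 replicate 2 or 3 (adjusted p 0.052 and 0.054), and its G-K562 call without replicate 1 or 3 of either V-K562 or G-K562 (0.057 to 0.088).

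SMC1A had the most marked region of the set, and it was not at the start. A region in an exon 48200 bp downstream of the start (chrX:53374126-53374847), at the far end of the gene, had pileups of 80, 67 and 61 in V-K562 and 77, 64 and 84 in B-K562. In G-K562 they were 22, 23 and 23. All 3 G-K562 libraries were far below the others, which overlapped. This region's log2 difference was -1.90 in G-K562 against V-K562 (SE 0.18, adjusted p = 0.00036), -1.88 against B-K562 (SE 0.17, adjusted p = 3.56e-05) and -0.04 in B-K562 against V-K562 (95% interval -0.41 to 0.34, adjusted p = 0.88). Both falls were called in all alternatives run. G-K562 was also the line in which SMC1A RNA was lowest.

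The SMC1A start (chrX:53422065-53423070), which RIBC1 shares, had 119, 119 and 134 in V-K562, 222, 190 and 200 in B-K562 and 158, 144 and 147 in G-K562. It was higher in B-K562 (0.56, SE 0.09, adjusted p = 0.0056) and lower in G-K562 than in B-K562 (-0.66, SE 0.09, adjusted p = 0.0004), calls that held in all alternatives. Against V-K562 the G-K562 value was -0.08 (adjusted p = 0.53), and 0.27 when equal tag number was the only scaling (adjusted p = 0.052). RAD21 had a single region (chr8:116874111-116875161), at its start, with 80, 81 and 82 in V-K562, 103, 88 and 115 in B-K562 and 91, 88 and 69 in G-K562. It was called only between G-K562 and B-K562 (-0.52, SE 0.14, adjusted p = 0.025), opposite in sign to the RNA, and not without B-K562 replicate 1 (adjusted p = 0.064) or 3 (0.088) or G-K562 replicate 3 (0.076), or with equal tag number as the only scaling (0.12) or summed pileup (0.29). At SMC3 (chr10:110567194-110568113) the libraries held 39, 71 and 48 in V-K562, 92, 68 and 80 in B-K562 and 64, 77 and 67 in G-K562, and no comparison was called (B-K562 against V-K562 was, at 0.70 and adjusted p = 0.047, without V-K562 replicate 2).

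The STAG1 start (chr3:136752065-136753170) held 127, 139 and 121 in V-K562, 147, 159 and 166 in B-K562 and 214, 237 and 215 in G-K562. It was higher in G-K562 (0.43, SE 0.10, adjusted p = 0.011) and not called in B-K562 (0.13, SE 0.10, adjusted p = 0.35), although the RNA difference was close to 1 in both lines. The G-K562 region differed from that of B-K562 by 0.28 (adjusted p = 0.053), and called with equal tag number as the only scaling (0.49, adjusted p = 0.002). STAG1 spans 416 kb and had 8 regions in all, of which 3 had peaks in V-K562 libraries only. One of these, beyond its end and near PCCB (chr3:136330897-136331245), had 22, 23 and 41 in V-K562 and no peak elsewhere, so it was fitted through V-K562 alone, with the other libraries set to 17. The size of its fall in B-K562 followed from that value, at -0.74 with 17, -1.45 with the lowest pileup of 10 and -0.47 without V-K562 replicate 3, and its call in B-K562 was lost without any library but V-K562 replicate 3. The other region called lower in B-K562 (chr3:136343776-136344269, in an intron) had a peak in all 9 libraries. It held 75, 66 and 81 in V-K562, 50, 54 and 60 in B-K562 and 86, 53 and 87 in G-K562. Its difference in B-K562 was -0.58 (SE 0.16, adjusted p = 0.029), a call that held in 6 of 12 alternatives. An intronic region 174387 bp into the gene held 29, 35 and 29 in V-K562, 18, 26 and 30 in B-K562 and no peak in G-K562. With G-K562 set to 17 its difference from V-K562 was -1.0, and with 10 it was -1.71, so its size depends on the filled value and no test is given.

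STAG2 had 3 regions near its starts, also close to LOC101928402. All 3 were called higher in both BASP1 lines, while its RNA was not called, but none of the 3 calls in B-K562 held without each library. The one upstream (chrX:123960184-123960585) held 35, 57 and 63 in V-K562, 92, 95 and 88 in B-K562 and 109, 109 and 119 in G-K562 (0.71, adjusted p = 0.041 and 0.80, adjusted p = 0.019). The B-K562 call was lost without V-K562 replicate 2 (adjusted p = 0.079) or any B-K562 replicate (0.10 to 0.12) or with summed pileup (0.11), and the G-K562 call without any G-K562 replicate (0.054 to 0.068). The region 1040 bp downstream of the start (chrX:123961374-123961918) held 34, 39 and 43 in V-K562, 62, 66 and 67 in B-K562 and 114, 101 and 116 in G-K562. Its steps did not overlap, and at 0.54 (SE 0.12, adjusted p = 0.0093) it was the larger of the 2 rises called in G-K562 against B-K562, a call lost with summed pileup (0.14). Its B-K562 call (0.59, adjusted p = 0.036) was lost without any library but V-K562 replicate 3 (0.066 to 0.099). The region 2608 bp downstream of the start was called in B-K562 (0.49, adjusted p = 0.035) and lost that call without any library but V-K562 replicate 3 (0.058 to 0.11) or with summed pileup (0.16).

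NIPBL, PDS5A and PDS5B showed smaller steps at their starts. The NIPBL start (chr5:36876445-36877070) held 96, 121 and 104 in V-K562, 155, 150 and 136 in B-K562 and 192, 167 and 174 in G-K562. It was called higher in G-K562 (0.38, adjusted p = 0.025) and not in B-K562 (0.31, adjusted p = 0.069), where the call was made with equal tag number as the only scaling (0.46, adjusted p = 0.022), with summed pileup (0.015) or without V-K562 replicate 2 (0.043). The G-K562 call was lost without V-K562 replicate 1 or 3 or G-K562 replicate 1 (adjusted p 0.068 to 0.072). At PDS5A (chr4:39977488-39978260) the pileups were 100, 111 and 104, then 149, 156 and 136, then 149, 180 and 198 in the same order of lines. Both lines were called higher (0.33, adjusted p = 0.038 and 0.38, adjusted p = 0.04), but without any single library the B-K562 call was lost (adjusted p 0.051 to 0.10). The G-K562 call was lost without any library but G-K562 replicate 1 (0.073 to 0.11). Over all 12 alternatives, changes of processing included, the B-K562 call held in 2 and the G-K562 call in 6. PDS5B (chr13:32586088-32586669) had 76, 80 and 75 in V-K562, 84, 131 and 109 in B-K562 and 133, 138 and 146 in G-K562. It was higher in G-K562 (0.50, SE 0.10, adjusted p = 0.0056) and not called in B-K562 (0.31, adjusted p = 0.21), where its RNA was higher. Without B-K562 replicate 1, the lowest of that line, the B-K562 region was called (0.50, adjusted p = 0.047).

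**Figure D5:**
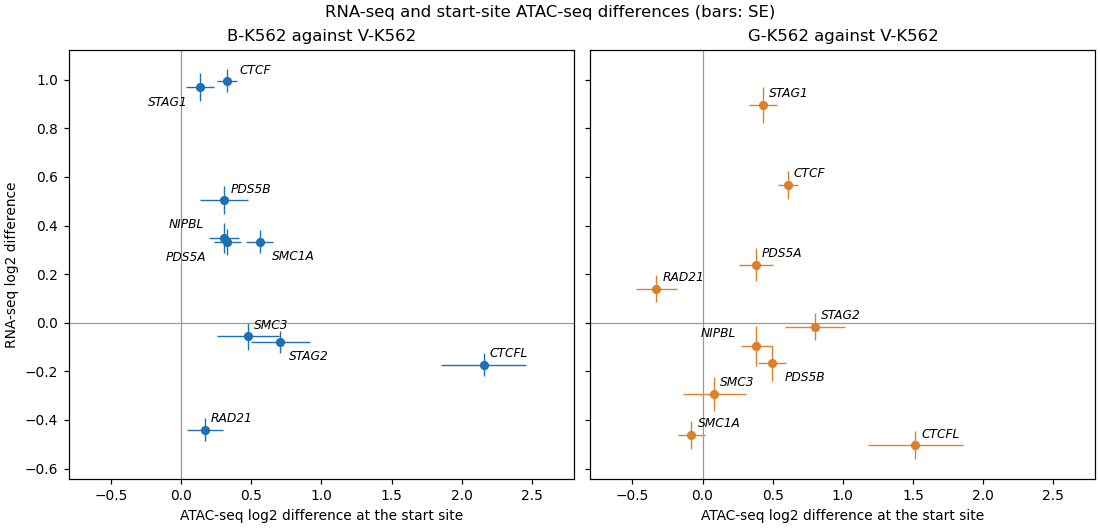
RNA-seq log2 difference of each gene (vertical axis) against the ATAC-seq log2 difference of its start-site region (horizontal axis), for B-K562 and G-K562 against V-K562. Bars are SE. CTCF and STAG1 are high on the RNA axis in both panels, and CTCFL, with 2 V-K562 libraries set to 17, is far to the right (2.16 and 1.52) with RNA below 0.

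Start-site values and RNA are set side by side here as a description, since start sites as a class lay above 0 in both lines (medians 0.23 and 0.32). In B-K562 all 10 start-site values were above 0, whereas RAD21 and CTCFL RNA was lower. SMC1A had the same sign in both measures in B-K562 against V-K562 (0.56 at the start, 0.33 in RNA) and in G-K562 against B-K562 (-0.66 and -0.79). In G-K562, 8 of 10 start-site values were above 0, whereas 3 members had less RNA, and the other two, RAD21 (-0.33) and SMC1A (-0.08), were above 0 with equal tag number as the only scaling (0.02 and 0.27). The 301 bases around region summits held the CTCF core motif in 1 of the 36 member regions and in 8.24% of all regions, and the WT1 and EGR-like motif in 7 of 36 and in 12.2%. Regions with the CTCF core motif across the genome, 4700 of those tested in B-K562, had a median difference of -0.02 there, with 4.57% higher and 7.28% lower, while regions without it had 8.97% higher and 17.5% lower. In G-K562 the regions with the motif had a median of -0.04, with 10.2% higher and 12.7% lower, and those without it 16.5% and 27.3%. These shares are descriptions over regions that differ in base composition and pileup, and no test of the difference was made.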

How the data were processed

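The lines V-K562 and B-K562 and the line G-K562 were each assayed by RNA-seq and by ATAC-seq, with 3 libraries per line and assay. For RNA-seq, reads had been mapped to GRCh38 with STAR and assigned to RefSeq genes with Subread, after removal of duplicates. The deposited values are a signal per gene, read counts that the authors divided by DESeq2 size factors within each table and rounded. The tables' columns of fold changes and p-values hold the authors' own comparisons and were not used. For ATAC-seq, reads had been mapped with BWA-MEM and peaks called with MACS2 in each library, and the deposited signal is the authors' summit pileup at an equal number of tags per library. Whether counting used strand is not given in the sources used here.

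The gene and region lists and the members were chosen with earlier results of these data known. A gene that reached 10 in 3 or more libraries was tested as log2(value + 1) with limma-trend (limma 3.58.1, R 4.3.3), so fold changes of low genes are understated. Adjusted p is by Benjamini-Hochberg over all genes or regions tested, called at 0.05. The comparison of G-K562 with B-K562 used all 9 libraries, with the B-K562 values multiplied by 1.02, the mean ratio of the V-K562 columns in the 2 tables. Overlapping peaks of the 9 libraries were merged into regions. The highest summit pileup was scaled to the trimmed mean of those regions where every compared library had a peak, libraries without a peak were set to 17 (the 5th percentile), and regions where 3 or more compared libraries had a peak were fitted by limma-trend. The start-site region is the one with the highest mean pileup within 500 bp of the annotated start, the mean being taken over libraries with a peak. Levels per kb used the merged exon length. Ratios of paralogs were compared by exact permutation tests, two-sided. Sequences came from RefSeq promoters (GRCh38.p14) and matching 301 bp windows from the same build. All 10 members are named, as are every start-site region, the region with the largest called rise and fall in each comparison, the gene with the largest called rise and fall in each of 4 other lists, and the 5 genes most correlated with CTCF and with RAD21. The other regions given were chosen after their values were seen. The fits were also run on simulated data with known differences, and the outcome is not given here or used as support. Replicates of one line correlated at 0.992 to 0.995 (RNA-seq) and 0.905 to 0.961 (ATAC-seq).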

Additional observations from a re-analysis of the deposited data

Results flagged for a closer look

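RAD21 and SMC1A were called in opposite directions in the BASP1 lines, and the difference between those lines was tested in itself. For RAD21, G-K562 minus B-K562 was 0.58 on the log2 scale (limma, adjusted p = 3.16e-08), with all 3 G-K562 libraries above and all 3 B-K562 libraries below the 3 V-K562 libraries. For SMC1A it was -0.79 (limma, adjusted p = 2.8e-09), with all 3 B-K562 libraries above and all 3 G-K562 libraries below. The K562 markers and most proliferation genes also differed between these lines, and their part in these differences was not tested.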

How the results depend on the processing

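Of the values for single genes and regions recomputed under the alternatives, 880 stayed on their side of the threshold, 95 lost the call, 17 gained it and none of the called ones reversed. Counts of members called in RNA-seq were within 1.5 times the main count except in these cases. No member was called in any comparison (0 higher, 0 lower) when a 2-fold change was also required, since CTCF stood at 1.0 on the log2 scale only after rounding. With quantile normalization, 4 members were lower in B-K562 against V-K562 (SMC3 and STAG2 added) and 2 were higher in G-K562 against B-K562. Leaving out each library in turn gave 6 higher and 2 to 3 lower in B-K562, 3 to 4 higher and 3 to 4 lower in G-K562, and 1 higher and 6 lower between them.

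The ATAC-seq counts moved more. Requiring a 2-fold change left 2 higher and 0 lower in B-K562, 2 and 1 in G-K562, and 0 and 1 between G-K562 and B-K562. The 2 regions lower in B-K562 became 0 with equal tag number as the only normalization, and 1 with a peak required in every library, with pileup summed over intervals or with regions inside the genes or at their starts only. With a peak in every library, 1 region was lower in G-K562 against V-K562 and 3 in G-K562 against B-K562. The 2 higher between G-K562 and B-K562 became 5 with equal tag number, 4 with the floor at the lowest pileup of 10 and 1 with summed pileup. Leaving out each library gave 2 to 8 higher and 0 to 1 lower in B-K562, 7 to 9 and 3 to 5 in G-K562, and 1 to 3 and 2 to 7 between them. Fewer libraries, or fewer regions, enter these fits by construction, and the cause of the other shifts was not tested.

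Replicate numbers are shared by the lines, but deviations of same-numbered libraries correlated at only -0.08 to 0.14, so the numbers were not taken to pair the libraries. With the replicate number as a block, RNA-seq gave 6 higher and 2 lower in B-K562, 3 and 3 in G-K562 (RAD21 lost, adjusted p = 0.082) and 1 and 6 between them. In ATAC-seq it gave 7 and 2, 11 and 4, and 2 and 4.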
